A study of Mus musculus with 6 samples.

Results

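Heat shock proteins and protein folding chaperones were followed as a set of 35 mouse genes: 16 of the cytosolic HSP70 and HSP90 machinery, 7 subunits of the cytosolic CCT/TRiC chaperonin, 3 mitochondrial chaperones and 9 of the endoplasmic reticulum (ER). They were chosen by family and compartment, with no measured value in the rule, and 34 of the 35 were measured among the 29161 genes and transcripts tested. Pdia3, an ER disulfide isomerase, was not analysed here. The RNA came from Lhx2 cells, a mouse line of blood progenitor type that grows because the transcription factor gene Lhx2 is forced on in it, and each sample was hybridised to a one-colour microarray. The tested cells had received 10 ng/ml transforming growth factor β1 (TGF-β1) for 2 h, and the control cells had received none over the same 2 h (n = 3 arrays each). Cells of both groups carried the same enforced Lhx2 expression, had been grown with 100 ng/ml stem cell factor and 10 ng/ml human interleukin 6, and had been starved of serum overnight, with 0.5% albumin in place of the serum, before treatment. All 6 samples are of 1 line, taken at 1 dose and 1 time, so the data hold no later or weaker response and no chaperone response to heat. The samples come from 3 independent RNA harvests, and a TGF-β1 sample forms a pair with the untreated sample that has its number.

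Chaperones bind unfolded or newly made proteins and help them reach or keep their native shape. In the cytosol, HSP70 proteins work with J-domain partners, which deliver substrates, and with nucleotide exchange factors, which release them, and they hand a subset of clients on to HSP90. The transcription factor HSF1 switches on many of these genes when unfolded protein accumulates in the cytosol, whereas unfolded protein in the ER is sensed by the unfolded protein response, whose factors act on the ER chaperone genes. In human red cell precursors HSP70 is known to protect GATA1, a transcription factor of blood cells, from cleavage.

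TGF-β1 moved no chaperone gene past the test. With treatment and pair in one limma model and Benjamini-Hochberg adjustment over all 29161 genes, 0 of 34 chaperones passed an adjusted p of 0.05, against 0.672% of all genes (196 called). Of all genes 0.552% were called higher and 0.12% lower, so with 34 genes a count of 0 lies near the background. Without the pairing 0 of 34 passed as well, against 0.254% of all genes. At an unadjusted p under 0.05 limma gave 1 chaperone, Dnajb6, which was higher, against 10.9% of all genes (5.89% higher and 5.01% lower).

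The same arrays carried a large response to TGF-β1 elsewhere. Smad7, an inhibitor in the TGF-β pathway that is itself switched on by the pathway, had a log2 level of 0.35 ± 0.18 in TGF-β1 cells and -3.21 ± 0.13 in untreated cells (SD, n = 3 each), an 11.8-fold difference with an adjusted p of 0.0074 in limma. Skil, another direct target, was 11.0-fold higher (adjusted p = 0.00802, limma). With normexp both had larger adjusted p-values, 0.17 for Smad7 and 0.0776 for Skil, with changes of 2.65 and 3.30. Levels are log2 of the background-subtracted signal minus the array's 75th percentile, so 0 is the brightness at that percentile, and the levels of different probes are not compared. The share of probes well above background was 82.9% to 90.3% on the 6 arrays, and Kit, Cd34 and Ptprc, markers of blood progenitors, were above background on all 6. The probe annotated to Lhx2 was dim, with harvest means between -4.41 and -4.19, so its level does not show the enforced expression. Which part of the gene this probe reads was not tested.

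The chaperone changes were small as well as uncalled, and most were slightly negative. The log2 change, TGF-β1 minus untreated, lay between -0.35 and 0.33, with a median of -0.09 over the 34 genes and of -0.01 over all genes tested. It was negative for 28 and positive for 6 (Dnajb6, Bag3, Dnajb1, Dnajb9, Dnajc3 and Pdia6), whereas 51.4% of all genes had a negative change. Most chaperones have bright probes, and of the 2917 brightest genes 66.5% had a negative change, with a median of -0.05. Of the 25 chaperones among these, 88% had a negative change, with a median of -0.08. Of the 9 chaperones outside them, 66.7% had a negative change, with a median of -0.15. For 33 of 34 chaperones (97.1%) the 95% confidence interval of the change stayed within 2-fold in either direction, against 91.5% of all genes, and for 26 of 34 (76.5%) it stayed within 1.5-fold, against 64.3% of all genes. These intervals are not adjusted for the number of genes. With another background correction (normexp on the median signals) 19 of 34 changes were negative, and the median was -0.0027 over the chaperones and -0.16 over all genes. The exception at 2-fold was Hspb1, a small heat shock protein with a dim probe, whose interval ran from 0.381 to 1.91 times the untreated level.

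**Figure D1:**
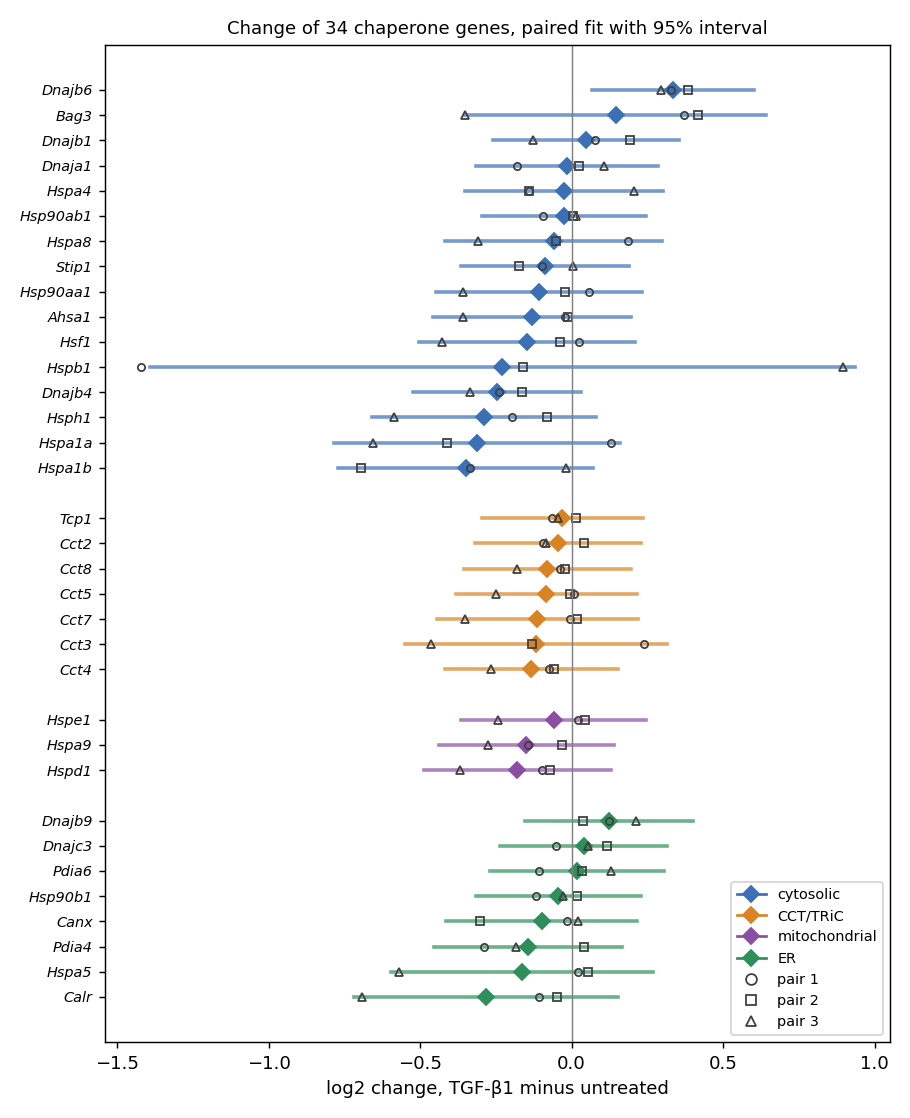
Log2 change of the 34 measured chaperones (TGF-β1 minus untreated, horizontal axis), by compartment. Diamonds are the fitted changes, bars their 95% intervals, and open symbols the differences of the 3 pairs. The diamonds lie between -0.35 and 0.33, and Dnajb6 alone has an interval that does not reach 0.

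Few chaperones kept the groups apart. In 1 gene every TGF-β1 array lay above every untreated array (Dnajb6), against 5.37% of all genes, and in 2 every TGF-β1 array lay below (Hspa1b and Hsph1), against 5.05%. Together these are 3 of 34, against 10.4% of all genes. The 3 pair differences all pointed up in 2 chaperones (Dnajb6 and Dnajb9), against 14.1% of all genes, and all pointed down in 9, against 20%. That makes 11 of 34 with a single direction, against 34.2% of all genes. The shares of chaperones with separate groups or a common direction are thus near those of all genes.

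Among the cytosolic chaperones, Dnajb6, a J-domain protein that holds back the aggregation of misfolded proteins, was the gene with an unadjusted p under 0.05. Its log2 level was 3.07, 3.37 and 3.07 in the TGF-β1 samples of pairs 1, 2 and 3, and 2.74, 2.98 and 2.77 in the untreated samples. All TGF-β1 arrays lay above all untreated arrays, and the pair differences of 0.33, 0.38 and 0.29 were close to each other. The change was 0.33 ± 0.10, or 1.26-fold with an interval of 1.05 to 1.52, and its adjusted p was 0.344 in limma, so it did not pass. Here and below, ± after a change is the standard error of the limma fit. That error is moderated with the spread of all genes and is not the spread of the 3 pair differences alone. The probe used is annotated to 1 transcript of Dnajb6, and probes for 2 further transcripts gave 0.24 and 0.10.

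Hspa1a and Hspa1b, the stress-inducible HSP70 genes that heat shock raises most in many cells, were dim on every array. Hspa1a had -2.43, -3.30 and -3.34 in TGF-β1 cells, against -2.56, -2.89 and -2.68 in untreated cells. Its groups overlapped, since the TGF-β1 sample of pair 1 was the highest of all 6, and the change was -0.31 ± 0.18 (adjusted p = 0.643, limma). Hspa1b had -3.42, -3.52 and -3.27 in TGF-β1 cells, against -3.08, -2.83 and -3.25 in untreated cells. The groups did not overlap, but the pair differences were -0.34, -0.69 and -0.02, and the change of -0.35 ± 0.16 did not pass (adjusted p = 0.54, limma). A second probe gave -0.49 for Hspa1a and 0.34 for Hspa1b, so the probes of Hspa1b differ in direction. The 2 genes are near-identical copies, and how far each probe reads the other copy was not tested, so the values of the single genes are uncertain.

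Hsph1, the HSP110 protein that exchanges nucleotide on HSP70, was the other chaperone whose groups were apart. It had 2.79, 2.72 and 2.77 in TGF-β1 cells, against 2.98, 2.80 and 3.35 in untreated cells. The TGF-β1 arrays lay close together and the untreated array of pair 3 stood above the rest, so the difference was largest in that pair (-0.59). The change was -0.29 ± 0.14, or 0.819 times the untreated level, with an adjusted p of 0.57 in limma. Hsf1, the gene of the factor that drives the heat shock response, had 2.12, 1.56 and 1.66 in TGF-β1 cells, against 2.10, 1.60 and 2.09 in untreated cells. Pairs 1 and 2 differed by 0.03 and -0.04 and pair 3 by -0.43, and the change was -0.15 ± 0.14 (adjusted p = 0.817, limma). These are levels of the Hsf1 transcript, and say nothing of the activity of the protein.

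**Figure D2:**
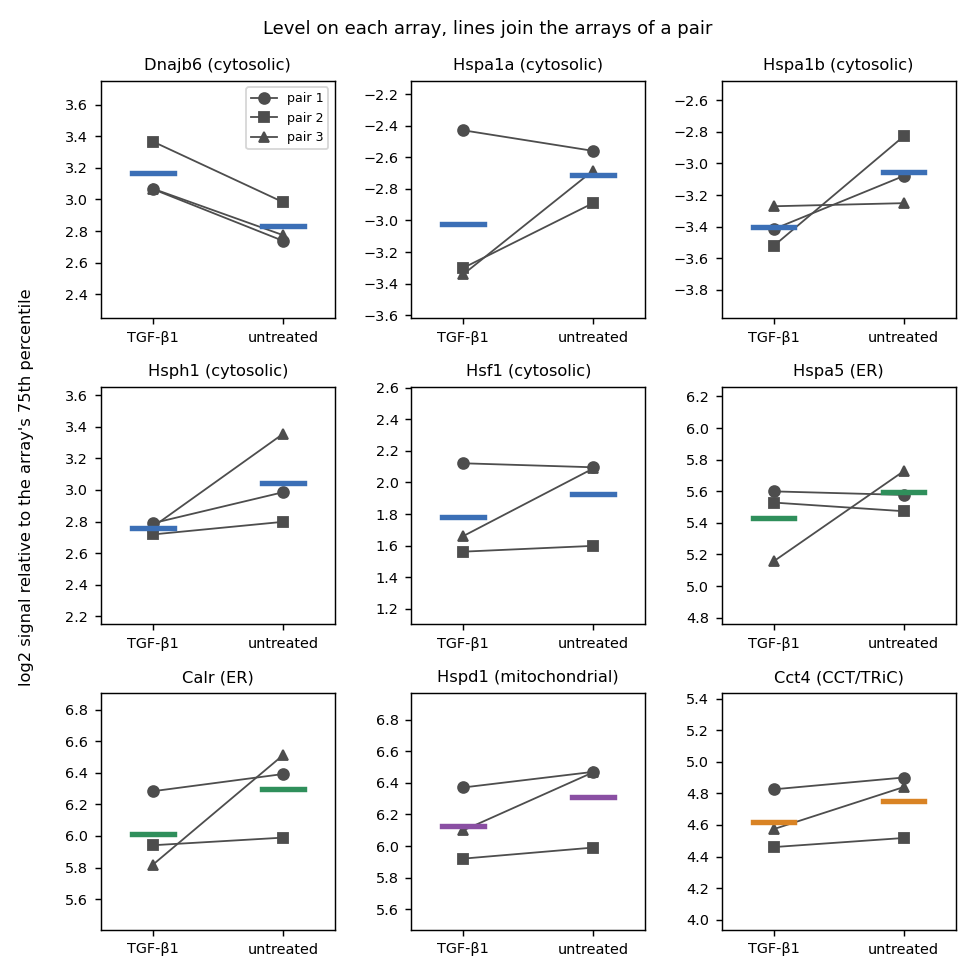
Log2 signal relative to the array's 75th percentile (vertical axis) of 9 chaperones on each array. Symbols are single arrays, lines join the arrays of a pair, and coloured bars are group means. All vertical axes span the same width at different heights. In the Dnajb6 panel all lines slope down to the untreated side by 0.29 to 0.38, and in the Calr, Hsf1 and Hspa5 panels the line of pair 3 is the steepest.

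The abundant partners of the HSP70 and HSP90 cycle differed less. Hsp90ab1, the constitutive HSP90, had a change of -0.03 ± 0.10, with an interval of 0.815 to 1.19 times the untreated level, whose bounds lay closest to no change among the 34. Hspa8, the constitutive HSP70, had -0.06 ± 0.14, and Hsp90aa1, the inducible HSP90, had -0.11 ± 0.13. The HSP90 cochaperones Stip1, which links HSP70 to HSP90, and Ahsa1, which stimulates the HSP90 ATPase, had -0.09 and -0.13. Of the J-domain genes Dnaja1 had -0.02, Dnajb1 0.05 and Dnajb4 -0.25. Dnajb4 was lower in TGF-β1 cells in all 3 pairs, with differences of -0.24, -0.16 and -0.34 and an adjusted p of 0.509. Bag3, a nucleotide exchange factor for HSP70 that also serves autophagy, had the least even pairs among the positive genes (0.37, 0.42 and -0.35), with a change of 0.15 ± 0.19. Hspa4, a further HSP110 protein, had -0.02 ± 0.13, and Hspb1 had -0.23 ± 0.45, with pair differences of -1.42, -0.16 and 0.90. As a group the 16 cytosolic genes had a median of -0.10, 13 negative and 3 positive, but 9 were negative with normexp, without pair 1 and within either slide. Their median was -0.034 with normexp and -0.011 with slide as a block.

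Promoter sequences were searched for the element that HSF1 binds, built from GAA units in alternating orientation. Windows of 300 bases, 250 before and 50 after the start site, were read from RefSeq (GRCm38.p6) for 29 of the 35 genes. Hspa8, Hsp90aa1, Hsp90ab1, Hsf1, Cct4 and Hspa9 had no window. The 3-unit element, read as GAA, TTC and GAA with any 2 bases between neighbours, was searched on both strands and occurs in 0.603% of all 32851 windows. It occurs in 4 of the 29 chaperone genes: Dnajb6, Hsph1, Hspd1 and Hspe1. Only exact matches were counted, so inexact or more distant elements in the other genes, Hspa1a and Hspa1b among them, were not sought. The shorter pairs of units contained in it are commoner. GAANNTTC is in 7.86% of windows and in 10 of the 29 genes, among them Hspa1a and Hspa1b, and TTCNNGAA is in 8.52% and in 6 of the 29. A gene was counted if any of its windows held a match, and some genes had 2 or 3 windows. Gene counts and window shares are therefore unlike measures. The palindrome GTCTAGAC, a reported target of SMAD proteins, is in 0.213% of windows and in 0 of the 29. The stretches below are shown because Dnajb6 is the chaperone with an unadjusted p under 0.05 and because Hspd1 and Hspe1 share one element. Each runs 5′ to 3′ on the strand of the gene, with the GAA-based element in capitals. Dnajb6 lies at chr5:29735828-29735887 on the plus strand, with the element starting at position -46 from one of the gene's 2 start sites. Hspd1 lies at chr1:55088041-55088100 on the minus strand and Hspe1 at chr1:55088035-55088094 on the plus strand. In Hspd1 and Hspe1 the capitals cover overlapping matches on both strands.
Dnajb6: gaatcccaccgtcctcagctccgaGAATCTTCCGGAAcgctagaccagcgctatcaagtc
Hspd1: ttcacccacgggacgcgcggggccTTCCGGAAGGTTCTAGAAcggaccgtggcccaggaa
Hspe1: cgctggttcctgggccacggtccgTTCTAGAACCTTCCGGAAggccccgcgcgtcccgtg

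The genes with the 3-unit element had no common change: 0.33 for Dnajb6, -0.29 for Hsph1, -0.18 for Hspd1 and -0.06 for Hspe1. A match is a description of the letters in the window and was not tested for binding. In Hsph1 the match lies past the start site and is not printed.

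The CCT/TRiC chaperonin, which folds actin, tubulin and other cytosolic clients in a closed double ring, had the most even changes of the compartments, and none passed. All 7 subunits had negative changes, between -0.13 and -0.03, with a median of -0.08, but only 4 were negative with normexp or without pair 3 and 3 with slide as a block. Cct4 had the largest: its levels were 4.83, 4.46 and 4.57 in TGF-β1 cells, against 4.90, 4.52 and 4.84 in untreated cells. The groups overlapped, and the change was -0.13 ± 0.11 (adjusted p = 0.782, limma). Its harvest means were 4.86, 4.49 and 4.71 in harvests 1, 2 and 3, and it did not pass the harvest test (adjusted p = 0.286, limma F test). Harvests 1 and 2 also lie on different slides (described below). The others were Cct3 (-0.12), Cct7 (-0.11), Cct5 and Cct8 (-0.08 each), Cct2 (-0.05) and Tcp1 (-0.03). All 7 intervals stayed within 1.5-fold. The median of the subunits was -0.04, -0.01 and -0.25 in pairs 1, 2 and 3, and all 7 were negative in pair 3, against 5 in pair 1 and 4 in pair 2.

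The 3 mitochondrial chaperones also had negative changes, with a median of -0.15, although 0 of the 3 were negative within slide 2 (described below). Hspd1, the mitochondrial HSP60 whose promoter is shown above, had 6.37, 5.92 and 6.10 in TGF-β1 cells, against 6.47, 5.99 and 6.47 in untreated cells. Every pair was lower with TGF-β1, but by -0.10, -0.07 and -0.37, and the groups overlapped (change -0.18 ± 0.12, adjusted p = 0.698, limma). Its partner Hspe1, the HSP10 lid of the same folding chamber, had -0.06 ± 0.12. Hspa9, the mitochondrial HSP70 that pulls imported proteins through the inner membrane, had -0.15 ± 0.11.

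Among the 8 ER chaperones measured, 5 had negative and 3 positive changes, with a median of -0.07 (0.018 with normexp). Hspa5, the ER HSP70 known as BiP, had 5.60, 5.53 and 5.16 in TGF-β1 cells, against 5.58, 5.47 and 5.73 in untreated cells. Pairs 1 and 2 differed by 0.02 and 0.05 and pair 3 by -0.57, so the change of -0.16 ± 0.17 rests on pair 3 (adjusted p = 0.838, limma). Calr, a calcium-binding lectin chaperone for glycoproteins, had the largest ER change. Its levels were 6.28, 5.94 and 5.82 in TGF-β1 cells, against 6.39, 5.99 and 6.51 in untreated cells, a change of -0.28 ± 0.17 (adjusted p = 0.65, limma). Here too pair 3 (-0.69) outweighed pairs 1 and 2 (-0.11 and -0.05). The ER group as a whole was not lower in pair 3, where its median was -0.0039 and 4 of 8 genes were negative. Its membrane-bound relative Canx had -0.10 ± 0.12, the ER HSP90 Hsp90b1 had -0.04 ± 0.10, and the disulfide isomerases Pdia4 and Pdia6 had -0.14 and 0.02. The J-domain partners of BiP, Dnajb9 and Dnajc3, had 0.12 and 0.04, and Dnajb9 was higher with TGF-β1 in every pair, by 0.04 to 0.21 (adjusted p = 0.795).

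A promoter element of the unfolded protein response was found in most of the ER genes read. The ER stress response element, read as CCAAT and CCACG with any 9 bases between them, is bound by factors of the unfolded protein response together with NF-Y. It occurs on either strand in 0.119% of the 32851 RefSeq windows (39 windows). It occurs in 6 of the 9 ER genes and in 0 of the 20 other chaperone genes with a window. The CCAAT box that forms its first part is in 37.4% of windows, in all 9 ER genes and in 19 of the 29 chaperones. The second ER element, ATTGG and CCACG with any 1 base between them (0.0365% of windows), and the core TGACGTGG (0.676%) are in 0 of the 29. As an exact match in the window, the ER stress response element was not found in Dnajb9, Pdia3 or Pdia4. Hspa8, Hsp90aa1, Hsp90ab1, Hsf1, Cct4 and Hspa9 were not read. The stretches that hold the element are shown because it is rare among all windows. They are from GRCm38.p6, 5′ to 3′ on the strand of the gene, with the element in capitals. Where it lies on the opposite strand, as in Calr and in the Hsp90b1 copy shown, the capitals read CGTGG to ATTGG. Their places are chr2:34772004-34772063 on the plus strand for Hspa5 and chr8:84847055-84847114 on the minus strand for Calr. The others are chr11:50325780-50325839, minus, for Canx, chr10:86705513-86705572, minus, for Hsp90b1, chr14:118937806-118937865, plus, for Dnajc3, and chr12:17266470-17266529, plus, for Pdia6.
Hspa5: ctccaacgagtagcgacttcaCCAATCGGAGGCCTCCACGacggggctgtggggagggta
Calr: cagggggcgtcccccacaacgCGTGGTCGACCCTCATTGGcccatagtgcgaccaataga
Canx: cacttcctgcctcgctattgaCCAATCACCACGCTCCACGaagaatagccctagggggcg
Hsp90b1: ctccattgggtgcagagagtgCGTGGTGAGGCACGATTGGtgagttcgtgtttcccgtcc
Dnajc3: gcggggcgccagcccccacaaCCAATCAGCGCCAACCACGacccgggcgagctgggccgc
Pdia6: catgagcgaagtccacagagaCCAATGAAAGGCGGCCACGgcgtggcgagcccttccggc

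The 6 genes with the element had changes of -0.28 (Calr), -0.16 (Hspa5), -0.10 (Canx), -0.04 (Hsp90b1), 0.02 (Pdia6) and 0.04 (Dnajc3). None passed the test, and they run from -0.28 to 0.04, while the ER group runs from -0.28 to 0.12. Of the ER genes measured without it, Dnajb9 had 0.12 and Pdia4 -0.14.

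The small negative shift of the set was uneven over the pairs. The median difference of the 34 chaperones was -0.06, -0.02 and -0.21 in pairs 1, 2 and 3, with 22, 19 and 24 genes negative, and pair 3 held the most negative difference for 20 of the 34. Pairs 1 and 2 each lie on 1 slide, whereas pair 3 spans both, with its TGF-β1 sample on slide 2 and its untreated sample on slide 1. In pair 3 the difference also moved with signal strength over all genes. The 2917 brightest genes, the top 10% by mean level, had medians of 0.01, 0.03 and -0.18 in the 3 pairs, and the 14580 dimmer genes had -0.10, -0.14 and 0.30. Of the 34 chaperones 25 were among the brightest 10%, with medians of -0.06, -0.01 and -0.24, and 3 (Hspa1a, Hspa1b and Hspb1) were among the 14580 dimmer genes.

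With slide in place of pair as the block, the chaperone median was -0.02 and 22 of 34 changes were negative. Within slide 1, which holds 1 TGF-β1 and 2 untreated samples, the median was -0.04, and within slide 2, which holds 2 TGF-β1 samples and 1 untreated, it was 0.01 with 16 of 34 negative. In pair 3 slide and treatment cannot be told apart. The part of slide or signal strength in the median was not tested beyond these values.

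**Figure D3:**
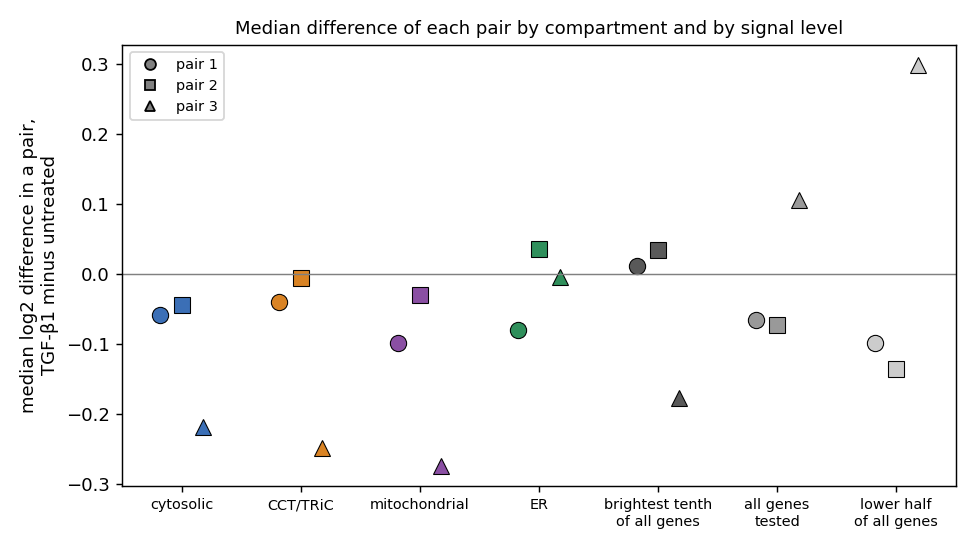
Median log2 difference within each pair (TGF-β1 minus untreated, vertical axis) for the 4 chaperone compartments and for all genes tested by signal level. Circles, squares and triangles are pairs 1, 2 and 3. In pair 3 the cytosolic, CCT/TRiC and mitochondrial medians lie below that of the brightest genes (-0.18), the ER median lies at -0.0039, and the dimmer genes lie at 0.30.

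Genes of the same pathways outside the set did not pass either. Of 93 further folding and stress genes in 7 lists 87 were measured, 0 passed the test in either direction (limma), and 5 had an unadjusted p under 0.05, against 10.9% of all genes. Changes were negative for 70 and positive for 17, with a median of -0.07, whereas 51.4% of all genes had a negative change. In 29 of the 87 all 3 pairs were lower, against 20% of all genes. How these counts change with the settings or with signal strength was not tested. The gene with the smallest p of each list is described here, and Ppp1r15a and Chac1 were added after their values were seen.

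Of 13 other HSP70 and J-domain genes, with a median of -0.05, Hspa4l stood first. This HSP110 relative of Hspa4 had 1.25, 1.45 and 1.36 in TGF-β1 cells, against 0.86, 1.07 and 1.1 in untreated cells, and so kept the groups apart. Its change of 0.34 ± 0.10 (adjusted p = 0.344, limma) was close to that of Dnajb6. Of 15 co-chaperones of HSP90 and HSP70, with a median of -0.11, Bag2, an inhibitor of the ubiquitin ligase that works with HSP70, had 0.61, 0.42 and 0.60 in TGF-β1 cells, against 0.87, 0.78 and 0.94 in untreated cells. This too separated the groups, with a change of -0.32 ± 0.10 (adjusted p = 0.363). Of 10 small heat shock proteins and regulators of heat shock factors, with a median of 0.02, the smallest p was that of Cryab (0.15, adjusted p = 0.845).

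All 8 genes of the prefoldin and CCT6 list were negative, with a median of -0.06. Cct6a, the remaining subunit of the chaperonin, had -0.26 ± 0.13 (adjusted p = 0.582, limma). Of 10 mitochondrial folding and proteolysis genes, with a median of -0.13, Htra2, a protease of the intermembrane space, had -0.36 ± 0.15 (adjusted p = 0.502). Of 21 other ER folding and degradation genes, with a median of -0.08 and 19 negative, Dnajc10, a J-domain disulfide reductase, had -0.28 ± 0.11 (adjusted p = 0.465).

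The 10 sensors and factors of the unfolded protein response had a median of -0.19. Of these 9 were negative, against 51.4% of all genes, and 7 were negative in all 3 pairs, against 20%. Trib3, a pseudokinase gene switched on late in that response, was the exception. It had -0.75, -0.32 and -1.22 in TGF-β1 cells, against -1.62, -0.98 and -1.71 in untreated cells. It was higher with TGF-β1 in every pair although the groups overlapped, because harvest 3 was low in both, and its change of 0.67 ± 0.12 had an adjusted p of 0.138 in limma. Ppp1r15a, a phosphatase subunit that restores translation after stress, had -0.54 (adjusted p = 0.243), and Chac1, a glutathione-degrading enzyme of the same branch, had -0.33 (adjusted p = 0.403). Of the list only Trib3, Ppp1r15a and Chac1 were read under other settings, and 2 of these passed. The settings concerned, the authors' matrix and array weights, called 727 and 1212 of all 29161 genes, against 196 in the main fit. With the authors' matrix Trib3 had 0.65 (adjusted p = 0.038) and Ppp1r15a -0.56 (adjusted p = 0.0254), and with array weights they had 0.73 (adjusted p = 0.0193) and -0.63 (adjusted p = 0.0312). The transcription factors of the response, Atf4, Ddit3 and Xbp1, had -0.35, -0.25 and -0.07, and none passed.

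Between harvests no chaperone passed the test either. In the same limma model 0 of 34 chaperones passed an F test of harvest at an adjusted p of 0.05, against 3.11% of all genes, and 2 (Dnajb4 and Hspa9) had an unadjusted p under 0.05, against 21.5%. The range between the 3 harvest means had a median of 0.24 over the chaperones and 0.37 over all genes. The largest was 0.60 for Hspa1a, with means of -2.49, -3.10 and -3.01 in harvests 1, 2 and 3 (adjusted p = 0.273). Hsf1 followed with 2.11, 1.58 and 1.87, and Hspa9 with 5.21, 4.71 and 4.94. Dnajb4 had 2.16, 2.01 and 1.69, Hspd1 6.42, 5.96 and 6.28, and Hspb1 -3.43, -3.02 and -3.38. Hsf1, Hspa9 and Hspd1 were thus highest in harvest 1 and lowest in harvest 2, and the medians of the mitochondrial and CCT/TRiC groups took the same order.

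That count depended on the setting. With normexp 5 chaperones passed (Hspa1b, Dnajb4, Dnajb6, Hspb1 and Cct7), against 54.7% of all genes, and with array weights 3 (Hsf1, Hspa9 and Hspd1), against 23%. Without harvest 3 the 2 remaining harvests differed in 7 chaperones (Ahsa1, Hsf1, Cct4, Cct7, Hspa9, Hspd1 and Calr), against 31.2% of all genes. All of harvest 1 lies on slide 1 and all of harvest 2 on slide 2. In every setting, a difference between harvests 1 and 2 therefore cannot be told apart from a difference between slides. This holds for these 7 genes and for the calls with array weights. It also holds for the order of Hsf1, Hspa9, Hspd1 and the mitochondrial and CCT/TRiC medians given above.

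Outside the set, 2 of the 87 related genes passed the harvest test, against 3.11% of all genes, so the count is near the background. Hspb8, a partner of Bag3, had means of -2.97, -1.58 and -4.86 in harvests 1, 2 and 3, a 9.69-fold range (adjusted p = 0.00254, limma). Cryab, the αB-crystallin gene, had -2.24, -1.09 and -2.82, a 3.33-fold range (adjusted p = 0.0347). On single arrays Hspb8 had -2.99, -1.52 and -4.78 with TGF-β1 and -2.94, -1.64 and -4.93 without, so the arrays of a harvest lay close together. Hspb8 missed the threshold with normexp (adjusted p = 0.0693). Cryab missed it without harvest 2 (0.457), with no filter on dim probes (0.0667) and with the mean of its probes (0.0955). Both were highest in harvest 2 and lowest in harvest 3, in TGF-β1 and in untreated samples alike, and neither was called for treatment.

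Most markers of stromal cells moved in the same order. Of 6 stromal markers 4 (Col1a1, Col1a2, Col3a1 and Dcn) passed the harvest test, with Dcn at 4.04, 5.38 and -0.87 and Col1a2 at 2.33, 4.04 and -0.44 in harvests 1, 2 and 3. Lum and Pdgfrb did not pass, and Lum was lowest in harvest 1 (-4.16, -4.01 and -4.05). The summed signal of all 6, on the log2 scale, lay at 4.42 to 4.63, 5.97 to 6.02 and 0.75 to 0.95 in the 3 harvests. Bright probes such as those of Dcn and Col1a2 weigh most in this sum, and the dim probe of Lum adds little to it. By treatment it overlapped, at 0.95 to 5.97 in TGF-β1 samples and 0.75 to 6.02 in untreated samples. Granulocyte markers differed between harvests as well (4 of 8 passed), as did 2 of 5 megakaryocyte and 2 of 5 macrophage markers, against 3.11% of all genes. They did not take the stromal order. S100a8 had 1.69, 3.25 and 4.83 in harvests 1, 2 and 3, and Pf4 had 5.92, 5.84 and 4.09. Of the macrophage markers Csf1r was highest in harvest 3 and Mrc1 in harvest 1. The order was not particular to stromal markers, since the summed signal of 5 mast cell markers took it too. That sum lay at 4.52 to 4.76, 4.82 to 5.07 and 4.18 to 4.47 in harvests 1, 2 and 3, and 0 of the 5 passed the harvest test. No marker passed for treatment. The part of these cells in the Hspb8 and Cryab levels was not tested, and in RNA from a whole culture more cells of a type and more RNA per cell cannot be told apart.

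**Figure D4:**
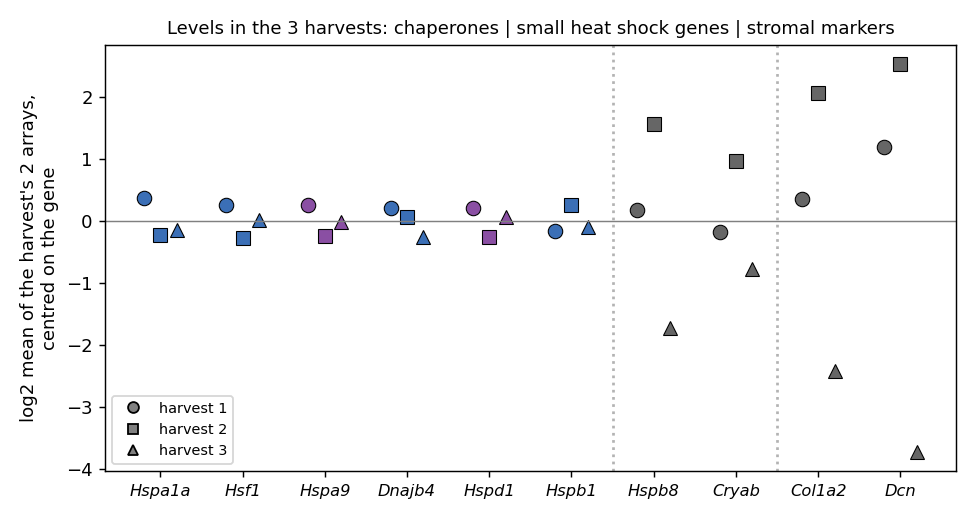
Mean log2 level of each harvest's 2 arrays, centred on the gene (vertical axis), for the 6 chaperones with the largest range between harvests, for Hspb8 and Cryab, and for 2 stromal markers. Circles, squares and triangles are harvests 1, 2 and 3. The chaperones span at most 0.60, while Hspb8 and Cryab lie in the order of the stromal markers Col1a2 and Dcn in being highest in harvest 2 and lowest in harvest 3.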

How the data were processed

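Cy3-labelled total RNA was measured on Agilent arrays (design 014868, annotation mm8). Per the file headers, intensity was read by Agilent Feature Extraction version 10.1.1.1. The authors' processed intensity is background-subtracted and not scaled between arrays. The deposited series matrix holds log2 values that follow the log2 median signal of each array (r 0.99951 to 0.9999, column medians 7.383 to 7.417). Its normalization is not given in the sources used here, beyond limma in the submitters' processing notes.

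Levels are log2 processed signal relative to the 75th percentile of the array, which lay between 794.2 and 1031. Outlier spots (43 to 101 per array) were left out, and 0 spots were saturated. The 3 arrays per group limit the precision. A probe entered if well above background on at least 3 of 6 arrays (36343 of 41174). Probes were named by RefSeq accession (GRCm38.p6, names only): 23374 had a symbol and 17800 none. The brightest passing probe stood for a gene. The set had 61 probes, all passing, and 21 of 27 further probes had the sign of the probe used.

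For each gene, limma 3.58.1 (R 4.3.3; lmFit, eBayes) fitted treatment with replicate number as a block, and p-values were adjusted by Benjamini-Hochberg over 29161 genes and transcripts. Standard errors are moderated. Harvest was tested by the F test of the replicate number in the same fit. Same-numbered samples deviated together (r 0.636, 0.786 and 0.557, against -0.736 to 0.0712 for different numbers), and the series design names independent harvests. The fit was tested on simulated data.

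Values on each array are given for members past the threshold, members whose groups did not overlap, Hsf1, Hspa1a, Hspa1b and Hspa5, and the largest change of each compartment. For harvests the 6 largest ranges are given, and for related lists the genes past the threshold or the one with the smallest p. The members, lists and rules were chosen with earlier results of these data known. Alternatives were the fit without the block, slide as a block, array weights, normexp (offset 50) on the median signals, quantile normalization, the authors' matrix, both probe filters, the mean of a gene's probes, and leaving out each pair.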

Additional observations from a re-analysis of the deposited data

How the results depend on the processing

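Under the 12 tested alternatives 0 of 408 chaperone values passed for treatment, 364 kept their sign and 44 had the other. The lowest adjusted p was 0.0803, for Dnajb6 with array weights (0.36), where pairs 1, 2 and 3 weigh 1.62, 2.4 and 0.257. The count of all genes called for treatment (196) was 74 with no replicate block, 0 with normexp (2194 at an unadjusted p under 0.05), 380 with quantile normalization, 727 with the authors' matrix, 27 with no filter, 372 with probes above background on all 6 arrays, 59 with slide as a block and 1212 with array weights. It was 26 to 67 when a pair was left out. The pairing changed no chaperone call. The harvest count of all genes (906) was 15939 with normexp, 1689 with the matrix and 6708 with array weights, and 364 to 9104 when a pair was left out. That of chaperones (0) was 5 with normexp (Hspa1b, Dnajb4, Dnajb6, Hspb1 and Cct7), 3 with array weights (Hsf1, Hspa9 and Hspd1), and 0 to 7 when a pair was left out, the 7 without pair 3. Normexp moved the median of all genes to -0.16 and left 19 of 34 chaperones negative. The ER median was 0.018 with normexp, 0.017 within slide 2 and 0.035 in pair 2 alone; the mitochondrial median was 0.020 within slide 2 and -0.0091 when slide was blocked, and that of all chaperones 0.011 within slide 2. With each pair left out the median of all chaperones lay between -0.11 and -0.03, the cytosolic between -0.13 and -0.06, the CCT/TRiC between -0.13 and -0.02, the mitochondrial between -0.21 and -0.08 and the ER between -0.044 and -0.037. The causes were not tested. The widest interval was that of Hspb1, whose probe is dim.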
